A study of Mus musculus with 4 samples.

Results

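A set of 9 genes is described here in germ cells of the fetal mouse ovary, with the somatic cells of the same gonads beside them. The set is Trp53, which encodes p53, and 8 genes of the BCL2 family: Bax, Bak1, Bid, Bcl2l11, Bbc3, Bcl2, Bcl2l1 and Mcl1. All 9 are among the 19321 genes measured by single-cell RNA sequencing of gonads from C57BL/6 XX embryos, collected on each embryonic day from E11.5 to E14.5. All 4 groups share that strain, tissue and chromosomal sex, and the labels name no treatment and no genetic change. There was 1 library per stage, and the number of embryos behind each is not given in the sources used here.

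Germ cells were the cells with a UMI of at least 3 of 6 germ cell genes (Dazl, Ddx4, Dnd1, Mael, Dppa5a and Mov10l1), and somatic cells those with a UMI of at most 1. Of 18970 cells kept out of 19387, 4061 were germ cells, 14383 were somatic and 526 had exactly 2 of the markers and were left out of both classes. By stage there were 245, 650, 756 and 2410 germ cells and 4428, 3986, 3854 and 2115 somatic cells. The label was checked on 12 germ cell markers that the rule does not use, among them Pou5f1, Dppa3 and Sycp3. All 12 had UMIs in both classes at every stage, so detection did not separate them. Their summed level did, at 2724 to 3266 CPM in germ cells against 29.49 to 62.96 CPM in somatic cells.

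In the mitochondrial pathway of apoptosis, BAX and BAK form pores in the outer mitochondrial membrane, BCL2, BCL-xL and MCL1 hold them in check, and BH3-only proteins such as BID, BIM and PUMA relay death signals to both. The transcription factor p53 responds to DNA damage and other stress and can switch on several of these genes. In the fetal ovary, germ cells enter meiosis over the days studied here, and Stra8, a gene induced by retinoic acid, marks that entry.

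Levels are UMIs (unique molecular identifiers, 1 per captured RNA molecule) added up over all cells of a class in a library and given per 1000000 UMIs of that class (CPM). The chemistry tags the 3′ end, so counts do not grow with the length of the RNA. Capture and mapping can still differ between genes. Orders and ratios between genes below are thus of captured UMIs and need not be those of the RNA in the cells. Intervals in parentheses are exact 95% intervals and cover counting error only. With 1 library per stage, a difference between 2 stages or between 2 sets of cells of 1 library has no replicates and was not tested, and stage and library cannot be told apart. A trend over the 4 stages was not tested. Germ and somatic cells come from the same 4 libraries, and their difference over all 4 was tested. Elsewhere a difference was called by a rule of size: at least 50 UMIs over both groups, a ratio of at least 2, and an exact binomial interval of the ratio that leaves out 1. "Rose", "fell", "higher" and "lower" as calls refer to this rule, not to a test. The median germ cell held 31268, 27740, 24830 and 15541 UMIs in stage order and the median somatic cell 13853, 12150, 10457 and 10216, and 175 barcodes occurred in more than 1 library.

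The promoters of the genes that carry the results are shown first, because Bax and Trp53 are the most abundant of the 9 in germ cells and theirs were the only member windows that held the letters of a p53 half-site. RefSeq windows of 300 bases (250 before to 50 after an annotated start, assembly GRCm38.p6) were found for all 9 genes, 14 windows in all. The half-site is the 10-base unit of the p53 response element. It reads the same on both strands in pattern, and the full element holds 2 of them. It was found in 2 of 14 member windows and in 8.36% of all 32851 windows. The full element was in 0 of 14 (0.0731% of all), and the STRA8 letters CNCCTCAG, searched on both strands, in 0 of 14 (7.94% of all). The windows are written 5′ to 3′ on the gene's strand with the half-site in capitals, for Bax on the minus strand at chr7:45466849-45467148 and for Trp53 on the plus strand at chr11:69580109-69580408.
Bax: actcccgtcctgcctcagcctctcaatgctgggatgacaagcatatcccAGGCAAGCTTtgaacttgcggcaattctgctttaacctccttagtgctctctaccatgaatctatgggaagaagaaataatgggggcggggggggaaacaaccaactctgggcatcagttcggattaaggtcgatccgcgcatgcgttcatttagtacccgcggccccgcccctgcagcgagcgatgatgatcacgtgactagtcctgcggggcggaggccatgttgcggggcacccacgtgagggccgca
Trp53: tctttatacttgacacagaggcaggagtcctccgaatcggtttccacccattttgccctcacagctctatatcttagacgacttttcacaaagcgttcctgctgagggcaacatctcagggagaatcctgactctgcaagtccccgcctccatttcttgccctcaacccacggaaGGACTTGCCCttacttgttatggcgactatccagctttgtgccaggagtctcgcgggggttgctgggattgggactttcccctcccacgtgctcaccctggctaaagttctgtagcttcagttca
In the Bax window the letters lie 201 to 192 bases before the start, and in the Trp53 window 75 to 66 bases before it. A match is a description of these letters and shows no binding.

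In germ cells, Trp53 was the member that fell furthest. It stood at 203 CPM (193 to 213) at E11.5, 207 CPM (201 to 214) at E12.5, 129 CPM (124 to 135) at E13.5 and 56.1 CPM (53.8 to 58.4) at E14.5. The first pair of stages overlapped within counting error, and each later stage lay below the one before. From E11.5 to E14.5 the level fell 3.62-fold, a log2 ratio of -1.86 (-1.95 to -1.76), and from E13.5 to E14.5 alone it fell 2.31-fold, at -1.21 (-1.29 to -1.12). Somatic cells of the same libraries stood at 178, 153, 132 and 154 CPM, with a log2 ratio of -0.21 (-0.26 to -0.16) over the same span, which was not called (13.7% of all genes were, for that span in somatic cells). After every cell was thinned to 5000 UMIs, the share of germ cells with a Trp53 UMI was 68.2%, 63.2%, 43.7% and 19.13%, against 98.4%, 98.3%, 87.6% and 44.0% before thinning. The thinned share in somatic cells was 56.9%, 52.9%, 47.9% and 49.6%.

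Over the whole span, E14.5 against E11.5, 2 of the 9 members were called in germ cells, Trp53 lower and Bcl2 higher, which is 22.2% beside 38.9% of the 12412 genes tested. By direction, 30.9% of all tested genes were called higher and 8.05% lower. The median log2 ratio of the members was -0.67, beside 0.45 for all genes tested. The CPM scale thus places most genes above their E11.5 level, and on a median-of-ratios scale, which lowers every log2 ratio by 0.44, Trp53 (-2.29), Bak1 (-1.42), Bcl2l11 (-1.16), Bax (-1.15) and Bid (-1.11) were called lower and Bcl2 (0.68) was not called. Mcl1 changed sign between the scales, from 0.06 to -0.37. Between successive stages no member was called from E11.5 to E12.5 (4.52% of all genes) or from E12.5 to E13.5 (7.50%), and only Trp53 from E13.5 to E14.5 (17.4%).

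**Figure D1:**
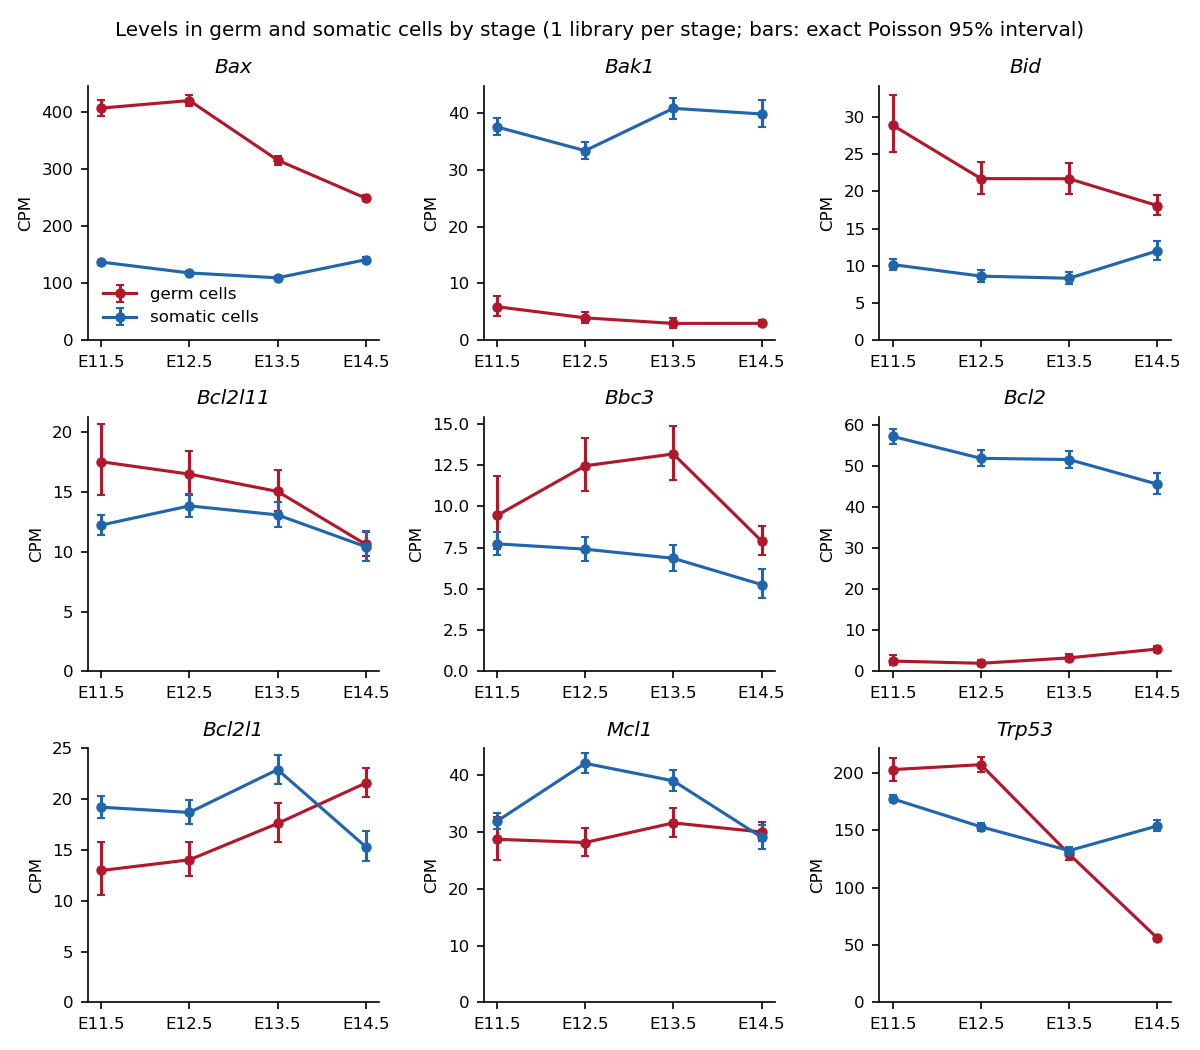
Level in CPM (y axis, from 0) of each of the 9 genes in germ cells (red) and somatic cells (blue) by stage (x axis). Points are sums over the cells of 1 library and bars are exact Poisson 95% intervals; Trp53 in germ cells goes from 203 to 56.1 CPM while Bak1 and Bcl2 there stay at or below 5.92 CPM.

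Of the pore-forming effectors, Bax was the most abundant member in germ cells at every stage and Bak1 was near the bottom. Bax had germ cell levels of 406, 419, 315 and 248 CPM and made up 56.8% to 61.9% of all UMIs of the 9 genes there. Somatic cells held 137, 118, 109 and 141 CPM of Bax, so germ cells stood above them at every stage. The log2 ratio of germ to somatic cells was 1.57, 1.83 and 1.53 at the first 3 stages, each called higher, and 0.82 (0.76 to 0.87) at E14.5, not called. Bak1 ran the other way, at 5.92, 3.96, 2.99 and 3.00 CPM in germ cells and 37.5, 33.3, 40.8 and 39.8 CPM in somatic cells. It was called lower in germ cells at all 4 stages, with log2 ratios of -2.66, -3.07, -3.77 and -3.73. Over stages in germ cells Bak1 fell just short of the rule, with a log2 ratio of -0.98. It was called lower with germ cells at 4 or more markers (-1.58), with classes set after thinning (-1.36) and on the median-of-ratios scale (-1.42). The same call was made with at most 2 somatic markers (-1.42), as a mean over cells (-1.13) and at a ratio of 1.5. None was made at 2 or more markers, with doublets kept or in germ cells with no somatic marker. Only 122 Bak1 UMIs were counted in the 2410 germ cells at E14.5.

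The 3 survival genes differed from one another. Bcl2 was the lowest or next to lowest member in germ cells, at 2.52, 1.98, 3.30 and 5.45 CPM, against 57.2, 51.9, 51.6 and 45.6 CPM in somatic cells, and it was called lower in germ cells at every stage (log2 ratios -4.50, -4.71, -3.97 and -3.06). Its call over stages in germ cells, a log2 ratio of 1.11 (0.45 to 1.85), rests on 20 UMIs at E11.5. When germ cells were taken at 2 or more markers the ratio turned to -0.50. No call was made with doublets kept (0.69) or on the median-of-ratios scale (0.68). Nor was one made with classes set after thinning (1.09, with 67 germ cells left at E11.5). The same held in germ cells without a UMI of Wt1, Gata4 and 5 other somatic marker genes (1.40, with 21 left at E11.5). From E13.5 to E14.5 the Bcl2 log2 ratio was 0.73 (0.32 to 1.15), not called. It was called higher at 4 or more markers (1.07), with classes set after thinning (1.06), with at most 2 somatic markers (1.015) and with none (1.17). It was not called for that step at 2 or more markers, with doublets kept or on the median-of-ratios scale (0.53). Bcl2l1, which encodes BCL-xL, had levels of 12.98, 14.03, 17.6 and 21.6 CPM in germ cells, and in somatic cells of 19.2, 18.7, 22.9 and 15.3 CPM. On the CPM scale germ cells were thus below somatic cells at the first 3 stages and above them at E14.5, with no call at any stage (log2 ratio 0.50, 0.33 to 0.67, at E14.5). On the median-of-ratios scale the interval held 0 at each of the first 3 stages. The ratios there were -0.01 (-0.31 to 0.28), 0.06 (-0.14 to 0.25) and -0.04 (-0.22 to 0.14), so the E12.5 ratio changed sign. Mcl1 stayed between 28.2 and 31.6 CPM in germ cells, and its log2 ratio over stages was 0.06 (-0.14 to 0.27).

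Bcl2 and Bak1 were very low in germ cells. Their levels were therefore set beside 7 genes used as somatic markers (Wt1, Gata4, Lhx9, Emx2, Col1a2, Col3a1 and Xist) in the same cells. Xist is not specific to somatic cells, since XX germ cells can make it, so its UMIs there need not be somatic RNA. Each level in germ cells was taken as a percent of the level in somatic cells. The 7 genes lay between 3.37% and 5.49% at E11.5, 3.15% and 4.90% at E12.5, 3.69% and 4.84% at E13.5, and 4.87% and 9.20% at E14.5. Bcl2 stood at 4.41%, 3.82%, 6.39% and 11.96%, so it lay inside that range at E11.5 and E12.5 and above it at E13.5 and E14.5. Bak1 stood at 15.8%, 11.9%, 7.33% and 7.53%, above the range at the first 3 stages and inside it at E14.5. How far somatic RNA enters the germ cell values of these 2 genes was not tested. In germ cells with no UMI of the 7 genes, the log2 ratio to somatic cells was also taken. It was -5.065, -7.00, -4.69 and -3.34 for Bcl2 in stage order, beside -4.50, -4.71, -3.97 and -3.06 in all germ cells. For Bak1 it was -2.46, -3.36, -4.20 and -4.875, beside -2.66, -3.07, -3.77 and -3.73. That restriction left 21, 194, 200 and 1056 germ cells and also selects cells without Xist. In all germ cells, the other 7 members stood between 36.5% (Trp53 at E14.5) and 356% (Bax at E12.5) of the somatic level.

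**Figure D2:**
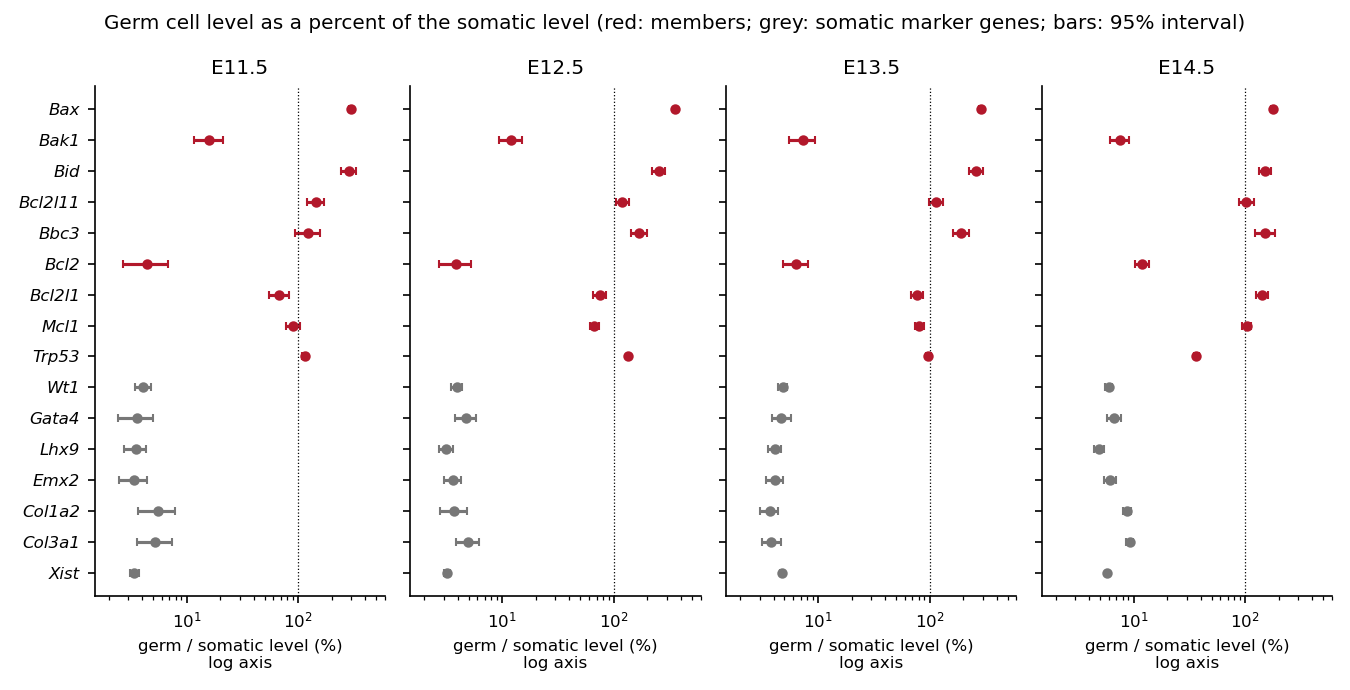
Germ cell level as a percent of the somatic cell level (x axis, log scale; dotted line at equal levels) for the 9 members (red) and 7 somatic marker genes (grey), 1 panel per stage. Bars are exact 95% intervals of the ratio; Bcl2 and Bak1 are the members nearest the grey genes, and Bcl2 at E14.5 (11.96%) lies above all 7 of them.

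Of the BH3-only genes, Bid was the one that stood above somatic cells by the rule. It was at 28.9, 21.7, 21.7 and 18.1 CPM in germ cells and 10.2, 8.62, 8.33 and 12.01 CPM in somatic cells, with log2 ratios of 1.505, 1.33 and 1.38 at E11.5 to E13.5, each called higher, and 0.59 at E14.5. Bcl2l11, which encodes BIM, was at 17.5, 16.5, 15.04 and 10.6 CPM in germ cells and at 10.4 to 13.8 CPM in somatic cells, with no call at any stage. Bbc3, which encodes PUMA, was at 9.45, 12.46, 13.2 and 7.91 CPM in germ cells and 7.73, 7.41, 6.86 and 5.26 CPM in somatic cells. Its largest log2 ratio to somatic cells, 0.94 (0.70 to 1.19) at E13.5, fell short of the rule, but on the median-of-ratios scale Bbc3 was called higher at E12.5 (1.22) and E13.5 (1.28).

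Counted over the members, germ cells differed from somatic cells in 4 of 9 at each of the first 3 stages (Bax and Bid higher, Bak1 and Bcl2 lower). The share of all genes called was 51.1%, 51.6% and 51.7% at these stages, so the members' share of 44.4% lies near it. At E14.5, 3 of 9 were called (Bak1, Bcl2 and Trp53, all lower), beside 48.3% of all genes. Trp53 had log2 ratios to somatic cells of 0.19, 0.44 and -0.03 before -1.46 (-1.53 to -1.38) at E14.5. On the median-of-ratios scale, which raised the E11.5 log2 ratios by 0.56 and those of the later stages by less, Bcl2l11 (1.07) was also called at E11.5. Mcl1 changed sign there at E11.5 (0.40) and E13.5 (0.04), and Trp53 at E13.5 (0.31).

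Over all 4 libraries, the germ and somatic sums of each library were set as a pair and tested with limma on log2(CPM + 5). The spread in this test includes any change of the difference with stage, since each library is also a stage. At an adjusted p under 0.05, 5 of 9 members passed, beside 60.4% of the 16020 genes tested. On this scale Bax stood above somatic cells by 1.40 ± 0.17 (SE, 4 pairs; limma adjusted p = 0.00102) and Bid by 0.89 ± 0.15 (limma adjusted p = 0.00379), each in 4 of 4 libraries. Bak1 (-2.27 ± 0.15; limma adjusted p = 0.000146) and Bcl2 (-2.78 ± 0.17; limma adjusted p = 0.000121) stood below in 4 of 4. Bbc3 was higher in 4 of 4, by 0.41 ± 0.13 (limma adjusted p = 0.0331), a call lost without the E12.5 library (adjusted p = 0.135) or the E13.5 library (0.155). Trp53 did not pass, with a mean difference of -0.20 (-0.93 to 0.53; limma adjusted p = 0.582), higher in 2 libraries and lower in 2. Bcl2l1 (-0.17), Bcl2l11 (0.19) and Mcl1 (-0.22) did not pass either. Without the E14.5 library Bcl2l1 passed, at -0.35 (limma adjusted p = 0.0282), and Trp53 turned to 0.19. On the median-of-ratios scale Bcl2l11 passed, at 0.55 (limma adjusted p = 0.0171), and Bcl2l1, Mcl1 and Trp53 turned positive without passing (0.20, 0.15 and 0.17). Over the 7 alternatives run, the limma adjusted p ranged from 0.00224 to 0.155 for Bbc3, from 0.0282 to 0.755 for Bcl2l1 and from 0.0171 to 0.493 for Bcl2l11.

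The order of levels in germ cells can be read from the counting intervals. At E11.5 it was Bax, Trp53, Bid with Mcl1, Bcl2l11, Bcl2l1, Bbc3, Bak1 and Bcl2. The intervals of Bid (25.2 to 32.8 CPM) and Mcl1 (25.1 to 32.7 CPM) overlapped, as did those of Bcl2l11 and Bcl2l1, of Bcl2l1 and Bbc3, and of Bbc3 and Bak1. At E14.5 the order was Bax, Trp53, Mcl1, Bcl2l1, Bid, Bcl2l11, Bbc3, Bcl2 and Bak1, and no neighbouring intervals overlapped. Bcl2l1 thus stood below Bid and Bcl2l11 at E11.5 and above both at E14.5, and Bcl2 changed places with Bak1.

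Summed by role, the 3 survival genes held 44.2, 44.2, 52.5 and 57.1 CPM in germ cells and the 2 effectors 412, 423, 318 and 251 CPM. The ratio of survival to effector UMIs was 0.107 (0.0959 to 0.120), 0.104 (0.0971 to 0.112), 0.165 (0.154 to 0.176) and 0.227 (0.217 to 0.237). In somatic cells the same ratio was 0.621, 0.745, 0.756 and 0.498. These ratios of UMIs say nothing of protein. Within the somatic cells, the subsets named from markers differed: Trp53 was 227 to 261 CPM in endothelial-like cells and 28.8 to 91.7 CPM in erythroid-like cells, Bid was 28.2 to 35.1 CPM in immune-like cells and 2.85 to 6.24 CPM in interstitial-like cells, and Bcl2l1 reached 65.7 CPM in erythroid-like cells. Immune-like cells numbered 12 to 31 per library. Their ratio of survival to effector UMIs was 0.390, 0.816, 0.245 and 0.215 in stage order. The E14.5 interval of that ratio (0.126 to 0.351) held the germ cell value, and so did the one at E13.5. In the other somatic subsets the ratio was 0.307 (endothelial-like cells at E11.5) or more. Bax was 174 to 279 CPM in immune-like cells.

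**Figure D3:**
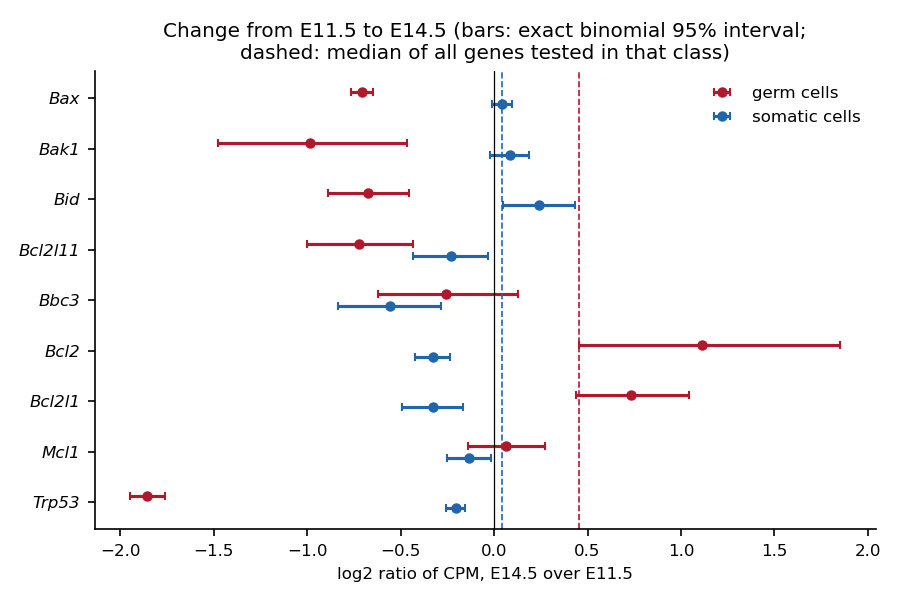
Log2 ratio of CPM at E14.5 over E11.5 (x axis) for the 9 genes in germ cells (red) and somatic cells (blue), with exact binomial 95% intervals. Dashed lines are the medians of all genes tested in germ cells (0.45) and in somatic cells (0.04); Trp53 in germ cells, at -1.86, lies farthest from both.

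Germ cells were then split by Stra8 within a library, which leaves out the difference between libraries. The levels were 0, above 0 and under 5, 5 to under 15, and 15 or more Stra8 UMIs per 10000 UMIs of the cell. At E13.5 these held 371, 308, 72 and 5 cells, and at E14.5 they held 120, 548, 1164 and 578, so the germ cells of E14.5 lay mostly at the upper levels. The 5 cells at E13.5 held 5 Trp53 UMIs, 87.3 CPM (28.3 to 204), too few to place. They are left out of the levels below but are part of the E13.5 ratios, which take all 77 cells with 5 or more.

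Apart from those 5 cells, Trp53 was lower at each higher Stra8 level in both libraries. At E13.5 it stood at 164 CPM (156 to 172), 103 CPM (96.0 to 110) and 41.8 CPM (32.4 to 53.1), and at E14.5 at 157 CPM (142 to 174), 95.2 CPM (89.5 to 101), 36.6 CPM (33.9 to 39.4) and 18.2 CPM (15.4 to 21.4). No neighbouring intervals overlapped within a library. The thinned share of cells with a Trp53 UMI followed the same order, 55.0%, 35.4% and 19.4% at E13.5 and 51.7%, 31.9%, 14.9% and 8.65% at E14.5. The log2 ratio of cells with 5 or more to cells with 0 was -1.92 (-2.28 to -1.58) at E13.5, and of cells with 15 or more to cells under 5 was -2.55 (-2.80 to -2.30) at E14.5. The median germ cell held 25913, 23437 and 20542 UMIs at these levels at E13.5 and 19345, 18940, 15394 and 13710 at E14.5. The 7 somatic marker genes, all detected at each of these levels, summed to 209.5, 135 and 100.5 CPM at E13.5 and to 758, 205.5, 199.7 and 71.7 CPM at E14.5. Xist alone made up 145, 84.1 and 53.1 CPM of these sums at E13.5 and 529, 143, 123 and 39.7 CPM at E14.5. In germ cells with no UMI of any of the 7 genes the Trp53 ratio was -1.51 at E13.5, and it was -2.49 at E14.5. That restriction also selects cells without Xist. The E13.5 call was lost when cells with any Stra8 UMI were set against those with none (-0.83).

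Within the same Stra8 range, the interval of the Trp53 ratio between the E13.5 and E14.5 libraries held 0 on the CPM scale at each of the 3 levels compared. Stra8 itself was not equal within the ranges above 0. It was 159.9 CPM at E13.5 and 251.5 CPM at E14.5 in cells above 0 and under 5. At 5 to under 15 it was 738.6 and 959.2 CPM. The log2 ratio of E14.5 to E13.5 was -0.06 (-0.22 to 0.10) with no Stra8 UMI, -0.11 (-0.25 to 0.02) above 0 and under 5, and -0.19 (-0.56 to 0.19) at 5 to under 15, against -1.21 over all germ cells. The medians over all genes tested were 0.13, 0.09 and 0.09. With no Stra8 UMI and above 0 and under 5, the median lies above the Trp53 interval. On a scale centred on it those intervals would lie below 0. The median-of-ratios scale was not run for these comparisons. These comparisons were chosen after the values were seen. Trp53 was called in none of them. With no Stra8 UMI, 2 of 9 members were called, Bcl2 (1.43) and Bak1 (2.04), both higher at E14.5, beside 7.02% of all genes. The Bcl2 call rests on 21 UMIs at E14.5 and 32 at E13.5. Both genes stood far higher in somatic cells, and Wt1 was also called higher in this comparison (1.25). How far somatic RNA enters these calls was not tested. At the other levels 0 of 9 and 0 of 8 members tested were called, beside 3.16% and 5.94%.

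Bax went down the same levels by less. It stood at 350, 284 and 251 CPM at E13.5 and at 299, 299, 237 and 192 CPM at E14.5, with log2 ratios of -0.50 (-0.65 to -0.35) and -0.64 (-0.73 to -0.56) in the comparisons above, neither called. Bbc3 was at 13.47, 13.05 and 12.49 CPM at E13.5, intervals that overlapped, and at 16.4, 9.27, 7.32 and 4.89 CPM at E14.5, where it was called lower, at -1.11 (-1.66 to -0.60). Bcl2l11 was at 16.9, 14.1 and 8.74 CPM at E13.5 and at 13.1, 12.2, 10.7 and 7.45 CPM at E14.5, with log2 ratios of -0.999, just short of the rule, and -0.74. On the median-of-ratios scale the E13.5 ratio was called, at -1.11. Bcl2l1 was at 16.3, 18.1 and 23.1 CPM at E13.5 and at 12.3, 18.7, 23.3 and 24.2 CPM at E14.5, not called. Mcl1 and Bid had no call by Stra8 level in either library. Bcl2 was under the minimum at E13.5, with 35 UMIs, and not called at E14.5. With germ cells at 2 or more markers Bcl2 was called lower at E13.5 (-2.73), and in germ cells with at most 2 somatic markers it was called higher at E14.5 (1.63).

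Bak1 was called at E14.5 (-1.12, -1.99 to -0.32), but its level was 12.3 CPM in the 120 cells with no Stra8 UMI and 2.79, 2.32 and 2.08 CPM at the other levels. The 120 cells also held more Wt1 and Xist. Wt1 stood at 61.6 CPM and Xist at 529 CPM, against 17.7 and 143 CPM in the cells above 0 and under 5. The cells with no Stra8 UMI at E13.5 held 25.8 and 145 CPM. In germ cells with no UMI of the 7 somatic marker genes, neither Bak1 (-0.65) nor Bbc3 (-0.46) was called. When cells with 15 or more were set against cells above 0 and under 5 only, Trp53 was called (-2.39, -2.64 to -2.14) and Bbc3 (-0.92) was not. Bak1, with 48 UMIs over both groups, fell short of the minimum. In all, 1 of 7 members tested was called lower at E13.5, beside 5.58% of all genes, and none higher, beside 7.96%. The count was 3 of 9 at E14.5, beside 21.3% of all genes called in either direction. The narrower comparison called 1 of 8 members tested, beside 18.4% of all genes.

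**Figure D4:**
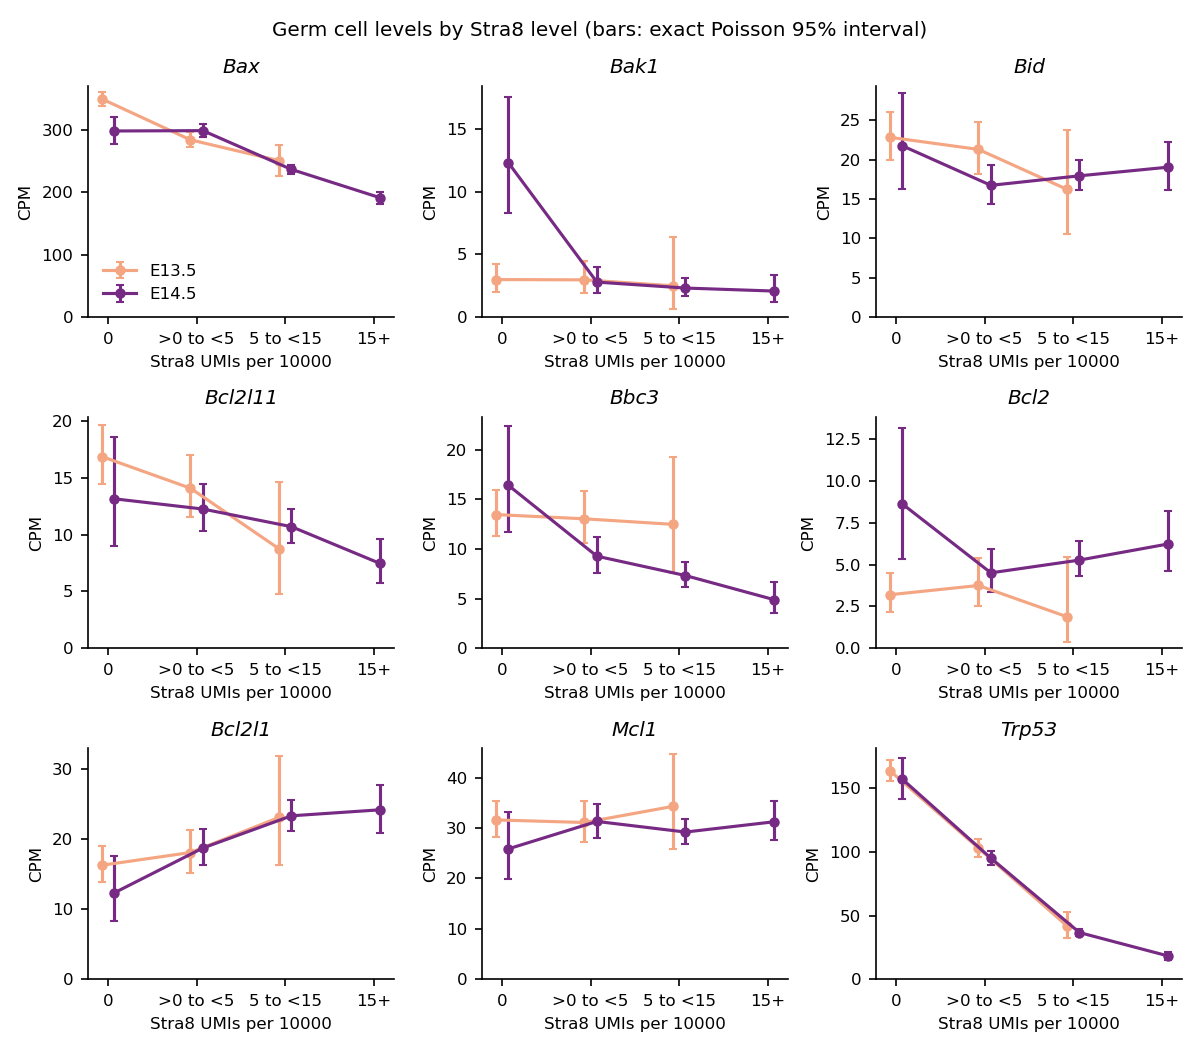
Level in CPM (y axis, from 0) of the 9 genes in germ cells by Stra8 level (x axis, Stra8 UMIs per 10000 UMIs of the cell) at E13.5 (orange) and E14.5 (purple), with exact Poisson 95% intervals. The E13.5 level of 15 or more (5 cells) is not drawn; the Trp53 intervals of the 2 libraries overlap at each of the 3 shared levels.

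The ratio of survival to effector UMIs also differed by Stra8 level. It was 0.145, 0.184 and 0.234 at E13.5 and 0.151 (0.123 to 0.184), 0.181 (0.165 to 0.197), 0.242 (0.226 to 0.258) and 0.319 (0.288 to 0.352) at E14.5. Most of the effector sum is Bax.

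Of 16 other BCL2 family genes in the table, 9 were tested over stages in germ cells, of which 3 were called higher (Bik, Bnip3 and Bok) and 1 lower. In either direction that is 44.4%, beside 38.9% of all genes (30.9% higher and 8.05% lower). The one lower was Bad, a BH3-only gene, at 58.9, 49.4, 33.1 and 21.5 CPM, a log2 ratio of -1.45. Bok, a relative of the effectors, went from 3.02 to 6.36 CPM in germ cells over this span and was at 31.6 to 50.5 CPM in somatic cells. The median log2 ratio of the 9 was 0.46, beside 0.45 for all genes. By Stra8 level at E14.5, Bmf (9.31 CPM under 5 and 2.08 CPM at 15 or more) and Bad (32.6 and 11.7 CPM) were called lower, 22.2% of those tested beside 21.3% of all genes.

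Downstream of the pores, 23 apoptosome, caspase and inhibitor genes were tested over stages, with 4 called higher, 1 lower and a median log2 ratio of 0.58, beside 0.45 for all genes. In either direction 21.7% were called over stages, beside 38.9% of all genes (30.9% higher and 8.05% lower). Those higher were Casp6 (10.96 to 33.9 CPM), Endog, a mitochondrial nuclease (44.5 to 117 CPM), Fadd (3.53 to 10.2 CPM) and Birc2. Vdac1, a channel of the outer mitochondrial membrane, was the one lower, at 130, 93.2, 71.1 and 35.3 CPM. Against somatic cells, 11, 11, 11 and 7 of the 23 were called lower in stage order and 2, 3, 4 and 2 higher. In either direction that is 56.5%, 60.9%, 65.2% and 39.1%, beside 51.1%, 51.6%, 51.7% and 48.3% of all genes. At E12.5 Casp8 (0.52 against 16.1 CPM) was among those lower and Cycs, which encodes cytochrome c (469 against 224 CPM), among those higher.

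Of 26 p53 target genes tested over stages in germ cells, 3 were called higher and 3 lower, with a median log2 ratio of -0.41, beside 0.45 for all genes. In either direction 23.1% were called, beside 38.9% of all genes (30.9% higher and 8.05% lower). Ddb2, a DNA repair gene, was higher, at 2.90, 3.08, 4.79 and 26.9 CPM, and Sesn1 and Polk were the other two. Plk3 (6.55 to 0.66 CPM), Tigar (48.9 to 21.0 CPM) and Perp (15 to 6.48 CPM) were lower. Cdkn1a, which encodes the cell cycle inhibitor p21, had a log2 ratio of 0.28 and Mdm2, the ligase that degrades p53, one of 0.59, neither called. By Stra8 level at E14.5, Ddb2 was higher (8.64 CPM under 5 and 52.8 CPM at 15 or more), and Btg2, Ddit4, Gtse1 and Tigar were lower. These were 20.8% of the target genes tested there, beside 21.3% of all genes. Against somatic cells, 11, 14, 10 and 9 target genes were called higher in stage order, of 25, 27, 26 and 26 tested, and 5, 4, 5 and 4 lower. In either direction that is 64.0%, 66.7%, 57.7% and 50%, beside 51.1%, 51.6%, 51.7% and 48.3% of all genes.

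Of 14 genes tested that regulate p53 or belong to its family, 7 were called higher in germ cells from E11.5 to E14.5 and 0 lower, beside 30.9% and 8.05% of all genes, with a median log2 ratio of 0.90 beside 0.45. Cdkn2a went from 14.2 to 127 CPM (somatic cells, 0.11 to 1.34 CPM), but 3′ counts of this gene cannot tell its p16 and ARF products apart. The damage kinase genes Atr (21.9 to 96.9 CPM), Prkdc (7.31 to 27.2 CPM) and Atm (21.1 to 57.9 CPM), and Chek1, Ep300 and Hipk2, were the others. By Stra8 level at E14.5, Cdkn2a, Atm and Atr were higher and Chek2 lower, 28.6% of those tested beside 21.3% of all genes.

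Across the 8 sums of germ and somatic cells at 4 stages, the genes most alike in log2(CPM + 5) were sought among 7404 genes, as a description over 8 points that share libraries and classes. For Trp53 they were Cdh3 (r = 0.971), Cfdp1 and Ctbp2, and Cdh3 went from 23.6 to 5.50 CPM in germ cells. For Bax they were Rpp38 (0.998), Rrp15 and Mrpl15, for Bid Arl6ip4 (0.997), Tbrg4 and Vac14, for Bak1 Nfkbil1, Mcts1 and Srek1ip1, and for Bcl2 Bmyc, H2afy2 and Susd3. Bcl2l1 was most like Npdc1 (0.982), Ccny and Fam189b, and Mcl1 most like Rcbtb1 (0.938), Nr4a1 and Eef1a1. Bcl2l11 and Bbc3 stayed under the 20 CPM needed for this comparison.

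In the GENCODE annotation of mm10, Trp53 lies at chr11:69580359-69591873 on the plus strand and overlaps no other gene. Bcl2l1, Bcl2l11, Mcl1 and Bbc3 also overlap none. Bax (chr7:45461697-45466898, minus strand) overlaps Gm45808 on its own strand. Bid overlaps Gm44260 on its own strand and Bcl2l13 and Gm17812 on the other, and Bcl2 overlaps Gm37053 and Mir3473f on its own strand and the antisense gene D630008O14Rik. Bak1 overlaps Ggnbp1 on the other strand. Whether the counting used strand is not given in the sources used here, and reads in sequence shared on 1 strand could be split or dropped.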

How the data were processed

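Gonadal cells of XX C57BL/6 embryos were captured with 10x Chromium 3′ chemistry, 1 library per stage. The submitters' processing notes name Cell Ranger 2.2.0 and mm10, with no role or order. The authors deposited natural log values, ln(1 + UMIs of the gene per 10000 UMIs of the cell), a unit read from the values. All values above 0 (100%) were whole multiples of their cell's unit at a tolerance of 1e-06, so UMIs were recovered. Library totals were 69458291 to 80377418 UMIs, and the shallowest cell held 5407.

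Doublets were called per library with Scrublet in scanpy 1.11.5 (rate 0.06, 2 simulated per cell, 30 components, seed 1). The 120, 105, 95 and 94 called were removed, as were 5 cells over 20% mitochondrial UMIs. Sums, exact intervals and shares were computed with numpy 2.4.6 and scipy 1.17.1. The rule of size was applied to all genes and tested on simulated data. Those data were drawn with counting error only, so they cannot show how the rule fares with variation between libraries. Germ and somatic sums of the 4 libraries were compared with limma 3.58.1, with the library as block, on log2(CPM + 5) of genes with at least 50 UMIs in all, with Benjamini-Hochberg adjustment, also tested on simulated data. Of each pathway list the 4 called genes with the largest log2 ratio over stages are named, of each member the 3 most alike genes. Genes named beyond that, such as Birc2, Sesn1, Polk, Atm, Ep300, Hipk2, Cdkn1a, Mdm2 and those of the Stra8 and somatic comparisons, were chosen after their values were seen. The members and lists were chosen with earlier results of these data known. Alternatives varied the marker rule, doublets, scale, thresholds, depth and somatic markers.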

Additional observations from a re-analysis of the deposited data

Results flagged for a closer look

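Bcl2, Bcl2l1 and Bid had log2 ratios of opposite sign in germ and somatic cells for E14.5 against E11.5, and the difference was not tested. The log2 ratio of Bcl2 was 1.11 in germ cells and -0.33 in somatic cells. Its germ cell ratio rests on 20 UMIs at E11.5 and turned to -0.50 with germ cells at 2 or more markers. Bcl2l1 had 0.73 in germ cells and -0.33 in somatic cells. On the median-of-ratios scale its germ cell ratio was 0.30 (0.00088 to 0.61). Bid had -0.67 in germ cells and 0.24 in somatic cells. The medians over all genes tested were 0.45 in germ cells and 0.04 in somatic cells.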

How the results depend on the processing

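Of 131 alternative values of the 10 counts of called members, 108 stayed within 1.5 times the reported count. The others are as follows. For E14.5 against E11.5 in germ cells (2 members called), the count was 1 with germ cells at 2 or more markers, 1 with doublets kept, 5 on the median-of-ratios scale, 7 at a ratio of 1.5 and 1 in germ cells with no UMI of the somatic markers. For E14.5 against E13.5 (1 member), it was 2 with germ cells at 4 or more markers, 2 with classes set after thinning to 5000 UMIs, 3 at a ratio of 1.5, 2 in germ cells with at most 2 somatic markers and 2 in those with none. In each count of 2 the member added was Bcl2, called higher. For E12.5 against E11.5 (0 members) it was 1 with germ cells at 2 or more markers, and for E13.5 against E12.5 (0 members) it was 2 at a ratio of 1.5. For germ against somatic cells at E14.5 (3 members) it was 6 at a ratio of 1.5. By Stra8 level at E13.5 (1 member), it was 3 with germ cells at 2 or more markers, 2 on the median-of-ratios scale, 2 at a ratio of 1.5, 2 with at most 2 somatic markers, 2 as a mean over cells, 0 for any Stra8 UMI against 0 and 2 without germ cells of at least 5% globin UMIs. By Stra8 level at E14.5 (3 members), it was 5 at a ratio of 1.5, 1 with no somatic marker and 1 against cells above 0 and under 5. The cause of these moves was not tested.

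Of 301 alternative values of the 22 called ratios, 1 changed sign: Bcl2 in germ cells, E14.5 against E11.5, went to -0.50 at 2 or more markers. Calls were lost in 15, all for Bcl2 over stages, Bak1 and Bbc3 by Stra8 at E14.5, or Trp53 by Stra8 at E13.5. Trp53 over the whole span ranged from -2.43 to -1.65 and by Stra8 level at E14.5 from -3.11 to -2.39. The restriction by globins, the restriction to no somatic marker and the comparison with cells above 0 and under 5 were chosen after seeing the data. The test paired by library (5 members passed) was also added after seeing the data. It passed 4 to 6 members with each library left out, 5 with no replicate block, 5 with a pseudocount of 1 CPM and 6 on the median-of-ratios scale. In this test Trp53 ranged from -0.41 to 0.19 with a library left out, and on the median-of-ratios scale Bcl2l1 (0.20), Mcl1 (0.15) and Trp53 (0.17) changed sign. No library could be left out of a comparison of 2 stages or within 1 library. Depth limits Bcl2 and Bak1 most, with 20 and 47 UMIs in germ cells at E11.5.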
